A study of Mus musculus with 40 samples.

Results

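The transcripts described here are those of MHC class II antigen presentation in mouse dorsal root ganglia (DRG), the ganglia that hold the cell bodies of sensory neurons. The 7 genes Cd74, H2-Aa, H2-Ab1, H2-Eb1, H2-DMa, H2-DMb1 and Ciita were chosen by name, and every probe that the platform's probe table assigns to one of them was used. They have 11 of the 25697 probes on the array. Cd74 has 2 probes, H2-Ab1 has 4 and the other genes have 1 each. For 6 of the 7 genes every probe lay above the detection level on 40 of 40 arrays, and these 6 are among the 10519 genes tested. The Ciita probe lay above it on 0 of 40.

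RNA from DRG of adult male C57BL/6J mice aged 9-10 weeks was hybridised to 40 one-colour Illumina bead arrays. Naive mice, with no surgery, gave 7 arrays. The other arrays came from mice with spared nerve injury, an operation that ligates and transects 2 of the sciatic nerve's branches, the tibial and the common peroneal, and spares the sural one. There were 3 arrays at each of 8 h, 16 h, 1, 2, 3, 5, 6, 7 and 8 d after injury, and 2 arrays at each of 4, 9 and 10 d. No sham-operated group was used here, so every injured array also carries anaesthesia and surgery that the naive arrays lack. Times were grouped into an early phase (8 h, 16 h and 1 d, 9 arrays), a middle phase (2 to 5 d, 11 arrays) and a late phase (6 to 10 d, 13 arrays). Nothing in the labels tells whether RNA came from single mice or pools, so p-values measure only how far these samples spread, which may be technical in part. Median signals of the arrays were 130.2 to 244.5 intensity units. The injury-induced transcription factor gene Atf3 had log2 signals up to 7.54 in naive ganglia and from 8.45 upwards after injury. Of 8 tested sensory neuron markers, Rbfox3, Scn10a, Prph, Uchl1, Nefh and Nefm lay above the detection level on 40 of 40 arrays. Tubb3 did so on 6 of 7 naive, 8 of 9 early, 7 of 11 middle and 13 of 13 late arrays. Nefl did so on 1 naive, 1 early, 1 middle and 1 late array.

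MHC class II molecules carry peptides from ingested proteins to the cell surface, where CD4+ T cells read them. In the endoplasmic reticulum the α and β chains bind the invariant chain, the product of Cd74, which fills the groove and steers the complex to endosomes. There the invariant chain is cut down to a short peptide, and H2-DM, a dimer of H2-DMa and H2-DMb1, exchanges that peptide for others. Transcription of these genes depends on CIITA, a coactivator that binds no DNA itself but joins the RFX, CREB and NF-Y proteins on the X and Y boxes of their promoters. Class II is constitutive on B cells, dendritic cells and many macrophages, and interferon gamma induces it in other cells through CIITA. In C57BL/6 mice the α chain gene of the I-E molecule, H2-Ea, is not expressed, so H2-Eb1 transcripts in this strain are those of a β chain without its usual partner.

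The promoters of 3 members are shown for the X and Y box letters, which the choice by name did not use. RefSeq promoter windows (GRCm38.p6, 250 bases before to 50 after the start site) of 4 of the 7 genes, all on chr17, were used. The selection passed over windows on another chromosome, and no window of Cd74, H2-Ab1 or Ciita was searched. The motif counts of the members therefore do not cover these genes. The windows are chr17:34287774-34288073 on the minus strand for H2-Aa, chr17:34305617-34305916 on the plus strand for H2-Eb1 and chr17:34152941-34153240 on the plus strand for H2-DMb1. They are printed 5′ to 3′ along the gene, with motif matches in capitals.
H2-Aa: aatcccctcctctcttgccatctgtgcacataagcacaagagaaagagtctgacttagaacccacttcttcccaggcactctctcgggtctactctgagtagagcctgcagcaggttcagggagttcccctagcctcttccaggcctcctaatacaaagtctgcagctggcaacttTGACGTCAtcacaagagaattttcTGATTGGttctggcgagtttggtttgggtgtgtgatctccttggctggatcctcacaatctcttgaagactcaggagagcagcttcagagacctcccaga
H2-Eb1: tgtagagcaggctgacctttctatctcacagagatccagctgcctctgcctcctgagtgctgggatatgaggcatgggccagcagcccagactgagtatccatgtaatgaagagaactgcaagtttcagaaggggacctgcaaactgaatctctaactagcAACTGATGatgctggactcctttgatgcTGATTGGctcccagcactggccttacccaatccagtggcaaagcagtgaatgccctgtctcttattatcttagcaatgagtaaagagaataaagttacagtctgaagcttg
H2-DMb1: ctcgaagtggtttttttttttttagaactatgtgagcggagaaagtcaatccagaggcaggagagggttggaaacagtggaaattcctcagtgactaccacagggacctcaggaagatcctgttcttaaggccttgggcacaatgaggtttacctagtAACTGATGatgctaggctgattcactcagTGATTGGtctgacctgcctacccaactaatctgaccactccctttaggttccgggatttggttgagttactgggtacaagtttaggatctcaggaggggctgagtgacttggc
The letters searched on both strands were TGATTGG for the Y box, AACNGATG for the core of the X1 box and TGACGTCA for the cAMP response element, the type of site found in X2 boxes. They were chosen with the sequences in view and do not overlap one another in these windows. Each of the 3 printed windows held TGATTGG, which ended 44 bases before the start site in H2-Aa, 55 in H2-Eb1 and 57 in H2-DMb1. Of all 32851 promoter windows in the table, 7.82% held it. The X1 letters occurred in H2-Eb1 and H2-DMb1, ending 82 and 85 bases before the start site, against 2.32% of all windows, and 0.186% of windows held both of these motifs. The windows of H2-Oa, H2-Ob and H2-DMb2, 3 other class II genes, each held TGATTGG. TGACGTCA occurred in H2-Aa, ending 67 bases before the start site, against 1.79% of all windows. Neither of the 2 windows listed for H2-DMa held any of the 3 motifs. Such a match describes the letters only.

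No class II gene was called at any single time up to 6 d, and Cd74, H2-Ab1 and H2-Eb1 were higher from 7 d on. No member was called higher or lower in the early phase (limma, adjusted p under 0.05 over 10519 genes), where 1.12% of all genes were called. None was called in the middle phase either, where 10.9% of all genes were called. In the late phase 4 of 6 tested members rose, against 5.76% of all genes: Cd74, H2-Ab1, H2-Eb1 and H2-DMa. The median log2 difference over the 6 members was 0.61 in the late phase, against -0.015 over all genes tested, and in the middle phase it was 0.03 against -0.012. Over all 12 times together the F-test called 4 of 6 members, the same 4 as in the late phase, against 7.52% of all genes. All comparisons with naive share the same 7 naive arrays.

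**Figure D1:**
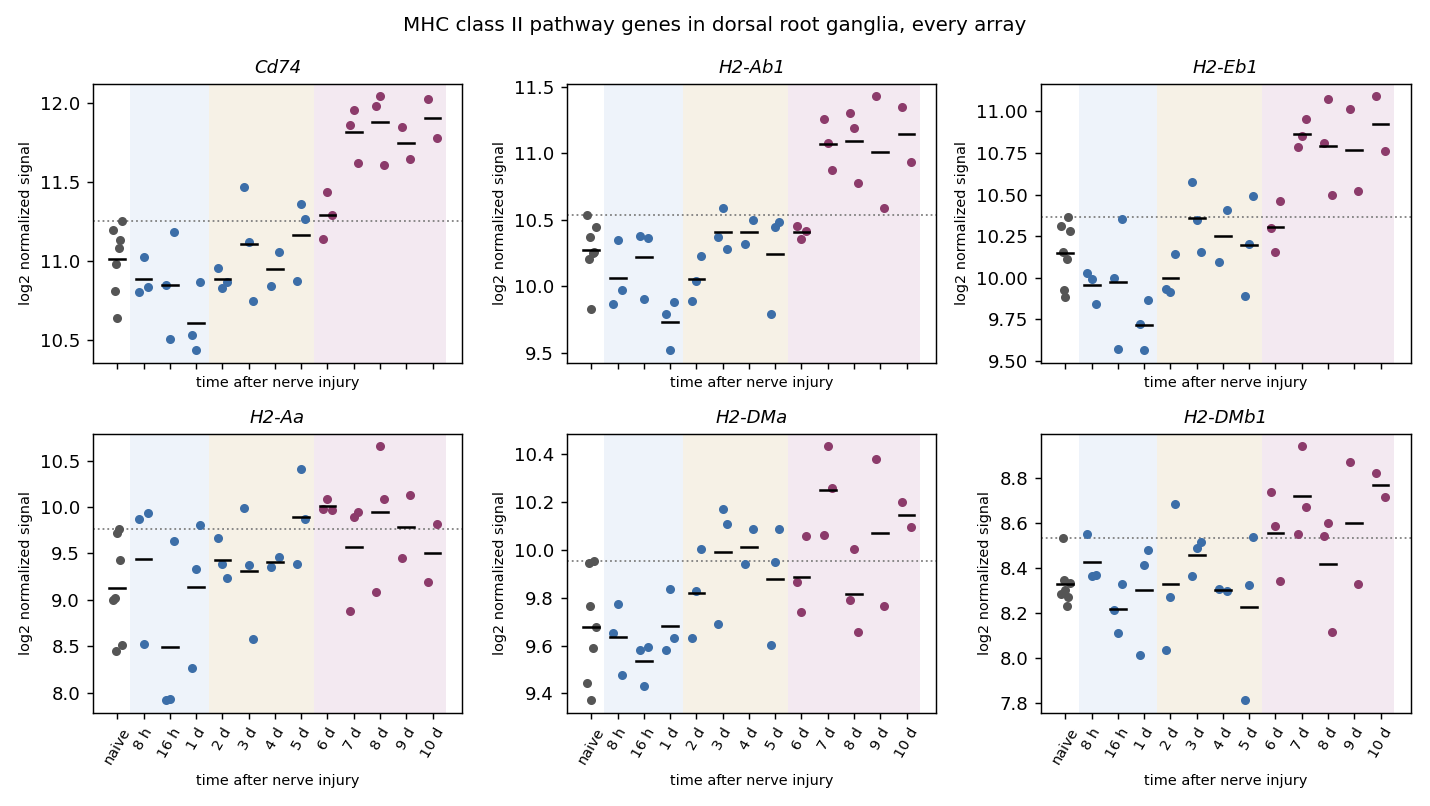
Each panel plots the normalized log2 signal (y axis) of 1 class II gene on every array against the time after nerve injury (x axis). Points are arrays, short bars are group means, shading marks the early, middle and late phases, and the dotted line is the highest naive array. For Cd74, H2-Ab1 and H2-Eb1 all 10 arrays from 7 to 10 d lie above that line.

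Cd74 encodes the invariant chain. Its log2 signal on the 7 naive arrays ran from 10.64 through a median of 11.08 to 11.26. In the early phase the arrays were at 10.80, 11.03 and 10.83 at 8 h, at 10.85, 10.50 and 11.18 at 16 h, and at 10.53, 10.44 and 10.86 at 1 d. No early array exceeded the highest naive one. In the middle phase they were at 10.95, 10.83 and 10.87 at 2 d, at 11.47, 11.12 and 10.74 at 3 d, at 10.84 and 11.06 at 4 d, and at 10.87, 11.36 and 11.27 at 5 d. In the late phase they were at 11.14, 11.44 and 11.29 at 6 d, at 11.86, 11.96 and 11.62 at 7 d, at 11.98, 12.04 and 11.61 at 8 d, at 11.85 and 11.64 at 9 d, and at 12.02 and 11.78 at 10 d. Every array from 7 d on was above every array of every earlier time and of the naive group. The late phase was 0.71 ± 0.10 (SE) above naive on the log2 scale, or 1.64-fold (adjusted p = 2.94e-06), with 12 of 13 late arrays above the highest naive one. The second Cd74 probe gave 0.67 ± 0.11 (adjusted p over all kept probes = 3.58e-05).

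H2-Ab1 encodes the β chain of I-A, the class II molecule that this strain displays. Its naive arrays ran from 9.83 through a median of 10.26 to 10.54. The early arrays were at 9.87, 10.35 and 9.97 at 8 h, at 10.38, 9.90 and 10.37 at 16 h, and at 9.79, 9.52 and 9.88 at 1 d. The middle arrays were at 9.89, 10.04 and 10.23 at 2 d, at 10.37, 10.59 and 10.28 at 3 d, at 10.32 and 10.50 at 4 d, and at 9.79, 10.45 and 10.48 at 5 d. Early and middle arrays thus overlapped the naive range. The late arrays were at 10.45, 10.35 and 10.41 at 6 d, at 11.26, 11.08 and 10.88 at 7 d, at 11.30, 11.19 and 10.78 at 8 d, at 11.43 and 10.59 at 9 d, and at 11.35 and 10.94 at 10 d. The 3 arrays at 6 d lay within the naive range and the 10 later ones lay above it. The late phase was 0.67 ± 0.11 above naive (1.59-fold, adjusted p = 6.18e-05). The 4 H2-Ab1 probes gave late differences between 0.58 and 0.72, and each passed the threshold when every probe was tested. Their signals correlated over the 40 arrays with r between 0.92 and 0.96 for the 6 pairs of probes.

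H2-Eb1 encodes the β chain of I-E. Its naive arrays ran from 9.88 through a median of 10.15 to 10.37. The early arrays were at 10.03, 9.99 and 9.84 at 8 h, at 10.00, 9.57 and 10.35 at 16 h, and at 9.72, 9.57 and 9.87 at 1 d. The middle arrays were at 9.93, 9.92 and 10.14 at 2 d, at 10.58, 10.35 and 10.15 at 3 d, at 10.10 and 10.40 at 4 d, and at 9.89, 10.20 and 10.49 at 5 d. These phases overlapped the naive range. The late arrays were at 10.30, 10.15 and 10.46 at 6 d, at 10.79, 10.85 and 10.95 at 7 d, at 10.81, 11.08 and 10.50 at 8 d, at 11.02 and 10.52 at 9 d, and at 11.09 and 10.76 at 10 d. Of the 13 late arrays, 11 exceeded the highest naive one. The late phase was 0.58 ± 0.10 above naive (1.5-fold, adjusted p = 8.87e-05). The probe of its α chain partner, H2-Ea, lay above the detection level on 0 of 40 arrays.

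H2-DMa and H2-DMb1, the chains of the peptide editor, moved less. H2-DMa ran from 9.37 through a median of 9.68 to 9.95 on the naive arrays, from 9.43 to 9.83 on the early ones, from 9.60 to 10.17 on the middle ones and from 9.66 to 10.43 on the late ones. It rose by 0.36 ± 0.095 in the late phase (adjusted p = 0.0101), with 8 of 13 late arrays above the highest naive one, and the groups overlapped. With the replicate number as a block that call was lost (0.33, adjusted p = 0.148). H2-DMb1 ran from 8.23 through a median of 8.30 to 8.53 on the naive arrays and from 8.12 to 8.94 on the late ones. Its late difference was 0.29 ± 0.098 and missed the threshold (adjusted p = 0.0575), with 10 of 13 late arrays above the highest naive one. It passed on removal of any of 9 single arrays (adjusted p down to 0.0216 without 9 d replicate 2). H2-DMb1 has a near-identical neighbour, H2-DMb2, whose own probe was above the detection level on 0 of 40 arrays, and whether the H2-DMb1 probe also binds its transcript was not tested.

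H2-Aa, the α chain of I-A and so the partner of H2-Ab1, was not called in the late phase. Its naive arrays ran from 8.45 through a median of 9.03 to 9.76, and its late arrays from 8.88 to 10.65, with 9 of 13 above the highest naive one. The late difference of 0.63 ± 0.27 was about the size of that of H2-Ab1 but had a far larger error (adjusted p = 0.141). Whether the late differences of H2-Aa and H2-Ab1 are unlike was not tested. With robust variances and array weights H2-Aa was called late (0.74, adjusted p = 0.0339). The standard deviation within groups was 0.61 for H2-Aa and between 0.20 and 0.25 for the probes that represent the other 5 members. At 8 d, for example, its 3 arrays were at 9.08, 10.65 and 10.09. The deviations of H2-Aa from its group means correlated with the first axis of within-group variation over all genes at r = 0.96 (40 arrays, a description), and those of the other 5 members at r between -0.42 and 0.10. This axis held 38.1% of the within-group variance, and 275 of the genes tested (2.61%) followed it with an absolute r over 0.9. Its source was not tested. With the first component of genes that showed no change over time as a covariate, an alternative added after the values were seen, H2-Aa was 0.58 higher in the late phase (adjusted p = 2.09e-06).

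Ciita, the gene of the coactivator, had 1 probe that ran between 6.11 and 6.77 on the 40 arrays, all below the detection level of 6.85. Its group means were 6.28 in naive ganglia and 6.24, 6.40, 6.48, 6.58 and 6.62 at 6, 7, 8, 9 and 10 d. These are not well above background, so no fold change is given.

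At single times the members were called from 7 d on. At the 8 earlier times 0 of 6 were called, against 0.105%, 0.713%, 1.65%, 3.86%, 5.82%, 2.45%, 6.93% and 5.2% of all genes in order of time. At 7 d 4 of 6 members were called higher, against 3.95% of all genes. At 8 d there were 3, against 2.6%, at 9 d 2, against 1.64%, and at 10 d 3, against 2.19%. Of the 72 pairs of a member and a time, 12 were called, all higher. Cd74 was higher by 0.80 ± 0.15 at 7 d, 0.87 ± 0.15 at 8 d, 0.74 ± 0.17 at 9 d and 0.89 ± 0.17 at 10 d. H2-Ab1 was called at the same 4 times (0.80, 0.82, 0.74 and 0.87). Its call at 9 d, on 2 arrays, had an adjusted p of 0.0346 and was lost when 1 of 5 particular arrays was left out (0.755 without 9 d replicate 1). H2-Eb1 was called at 7, 8 and 10 d (0.72, 0.65 and 0.78), with 0.62 at 9 d (adjusted p = 0.0521). Leaving out 1 array took the members called to between 0 and 3 at 9 d and at 10 d. Cd74 lost its call at 9 d without either array of that time (adjusted p = 0.356 without replicate 1 and 0.068 without replicate 2), and all 3 calls at 10 d were lost without 10 d replicate 1. H2-DMa was called at 7 d alone (0.57, adjusted p = 0.00714), with 0.14 at 8 d. That 7 d call was lost without 7 d replicate 2 (adjusted p = 0.118) and with the replicate number as a block (0.0611). The H2-Eb1 call at 8 d was lost without 8 d replicate 2 (0.139). With the replicate block H2-Ab1 also missed at 8, 9 and 10 d (0.0543, 0.255 and 0.0986) and Cd74 at 9 d (0.0679). At 6 d Cd74 differed from naive by 0.28 (adjusted p = 0.32), H2-Ab1 by 0.13 (0.713) and H2-Eb1 by 0.16 (0.616). The lowest group means of Cd74, H2-Ab1 and H2-Eb1 all fell at 1 d, at -0.40, -0.54 and -0.43 from naive, and none passed the threshold (adjusted p of 0.206, 0.114 and 0.174). With robust variances and array weights all 3 passed (adjusted p of 0.0246, 0.0171 and 0.044), and without naive replicate 4 H2-Ab1 did (0.0432).

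The 4 groups from 7 to 10 d held the 4 highest means of each of these 3 genes. In the order of the 13 group means, 2 of the 12 gaps between neighbours exceeded the standard deviation within groups for each of the 3. One was the gap under those 4 groups (0.46 for Cd74, 0.60 for H2-Ab1, 0.41 for H2-Eb1) and the other the gap above 1 d (0.24, 0.32 and 0.24). The other neighbours differed by less than that spread. For H2-DMa and H2-DMb1 no gap did so (0 of 12 for each), and for H2-Aa 1 did. Between 6 and 7 d Cd74 differed by 0.52 ± 0.17 (unadjusted p = 0.00508), H2-Ab1 by 0.67 ± 0.20 (0.00198) and H2-Eb1 by 0.56 ± 0.18 (0.00321). No gene of the 10519 was called for that step after adjustment (0%, adjusted p = 0.901 for these 3), so the time of the change is not fixed to it by the test. All 10 arrays from 7 to 10 d exceeded all 7 naive arrays for 3 of 6 members (Cd74, H2-Ab1 and H2-Eb1), against 2.08% of all genes. For the whole late phase, 6 d included, that count was 0 of 6, against 1.83%.

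Set against the earlier phases directly, the late rise was among the few changes between the middle and late phases. Late minus middle called 68 genes in all, 37 of them higher (0.352% of all genes), and 3 of the 6 members were among these. Cd74 was 0.70 ± 0.09 higher late than in the middle phase (adjusted p = 1.81e-05), H2-Ab1 0.66 ± 0.10 (0.000334) and H2-Eb1 0.53 ± 0.09 (0.000947). By p-value Cd74 ranked 1st, H2-Ab1 3rd and H2-Eb1 7th among the genes that were higher. H2-DMa (0.11, adjusted p = 0.586), H2-DMb1 (0.28, 0.123) and H2-Aa (0.25, 0.671) missed the threshold. Without the 3 arrays at 6 d, an alternative added after the values were seen, the 3 differences were 0.81, 0.80 and 0.64. Late minus early called 5 of 6 members higher, against 4.4% of all genes: Cd74 0.95 ± 0.09, H2-Ab1 0.94 ± 0.11, H2-Eb1 0.85 ± 0.09, H2-DMa 0.42 ± 0.09 and H2-DMb1 0.30 ± 0.09 (adjusted p = 0.0388). H2-Aa differed by 0.74 ± 0.25 (adjusted p = 0.0674). The late-minus-early call of H2-DMb1 was lost on removal of any of 13 single arrays.

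Macrophage markers were higher in the middle phase, when no class II member was called. Of 16 tested macrophage genes 13 rose in the middle phase (5.72% of all genes did) and 14 in the late phase (5.76%). In the early phase 0 were called, against 1.12% of all genes. In the middle phase Mrc1, the mannose receptor, was 1.23 ± 0.13 above naive, Adgre1, an adhesion receptor of mature macrophages, 0.83 ± 0.17, Aif1, which encodes IBA1, 0.57 ± 0.08, and Cx3cr1, the fractalkine receptor, 0.50 ± 0.14. At the same times Cd74 and H2-Ab1 differed by 0.01 each, H2-Eb1 by 0.05, H2-DMb1 by 0.00025, H2-DMa by 0.25 and H2-Aa by 0.38, and none passed. H2-DMa passed without 3 d replicate 1 (adjusted p = 0.0481) and with robust variances and array weights (0.0118). The summed signal of the 16 genes ran from 8270 to 8930 units on the naive arrays, from 8325 to 10494 early, from 12245 to 17178 in the middle phase and from 13635 to 19657 late. In tissue RNA more cells of a type and more RNA per cell cannot be told apart. From the middle to the late phase 2 of the 16 were called higher, against 0.352% of all genes. They were Lyz2, a lysozyme gene (0.53, adjusted p = 0.000867), and Trem2, a lipid-sensing receptor gene (0.45, 0.00154). Trem2 was above the detection level on 7 of 11 middle arrays.

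**Figure D2:**
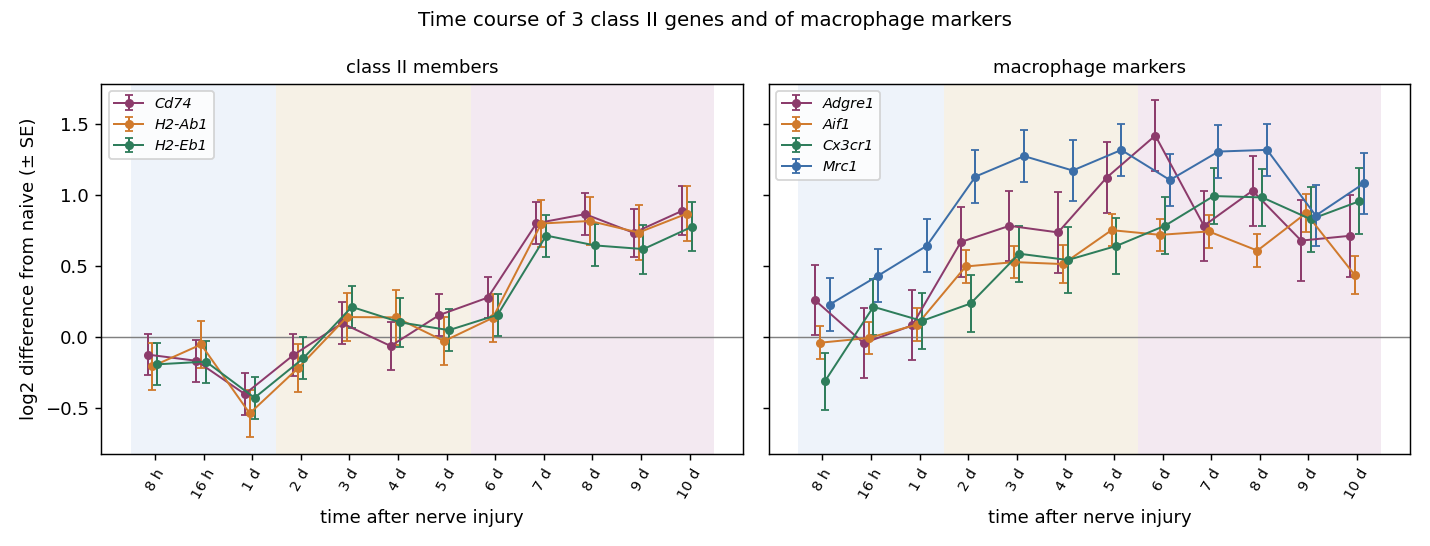
The log2 difference from naive (y axis, ± SE of the fit) is plotted at each time after injury (x axis) for Cd74, H2-Ab1 and H2-Eb1 on the left and for 4 macrophage marker genes on the right. Mrc1 is at 1.13 at 2 d, where Cd74 is at -0.13, and the 3 class II genes are above 0.6 from 7 d.

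The middle to late changes of Cd74, H2-Ab1 and H2-Eb1 were compared with those of these markers. The 13 late and 11 middle arrays were permuted (two-sided, 100000 resamples, 12 pairs, Benjamini-Hochberg over them). The permutation ignored the times within each phase and so treated all arrays of a phase as replicates. For Cd74, H2-Ab1 and H2-Eb1 the group mean at 6 d lay below those at 7 to 10 d, so that treatment is not exact. These pairs were chosen after the values were seen and take in 4 of the 16 macrophage genes. The members are those already called late minus middle, and the 4 markers are among those not called there. The p-values therefore describe these pairs and cannot decide whether class II genes depart from macrophage genes in general. Lyz2 and Trem2, which rose by 0.53 and 0.45 from the middle to the late phase, near the 0.53 of H2-Eb1, were not compared. Cd74 changed by 0.75 more than Mrc1 (adjusted p = 0.00012, from the smallest p that 100000 resamples give), 0.58 more than Aif1 (0.0012), 0.55 more than Adgre1 (0.028) and 0.26 more than Cx3cr1 (0.034). H2-Ab1 passed against Mrc1 (0.73, adjusted p = 0.00024) and Aif1 (0.55, 0.0065) and missed against Adgre1 (0.53, 0.067) and Cx3cr1 (0.24, 0.1). H2-Eb1 passed against Mrc1 (0.59, 0.00032) and Aif1 (0.42, 0.0088) and missed against Adgre1 (0.39, 0.1) and Cx3cr1 (0.10, 0.39). The Cd74 call against Cx3cr1 did not survive the removal of any of 5 arrays (adjusted p up to 0.065), namely 3 d replicate 1, 4 d replicate 2, 5 d replicate 3, 8 d replicate 1 and 10 d replicate 2.

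Many markers of other cells that carry class II were at background. Among dendritic cell genes Flt3, Itgax, Ccr7, Clec9a, Xcr1 and Cd209a were above the detection level on 0 of 40 arrays. Of the 6 tested, 1 was called higher early, 3 in the middle phase and 2 late, against 0.846%, 5.72% and 5.76% of all genes. Fscn1, an actin-bundling protein also made by other cells, rose in the late phase (0.91 ± 0.12). Batf3 was above the level on 0 of 7 naive and 1 of 13 late arrays and Clec10a on 0 of 7 and 4 of 13, so no value is given. Zbtb46 was at 0.20 (adjusted p = 0.268). Mean log2 signals of Itgae and Siglech were 7.18 and 7.52 in naive ganglia and 7.20 and 7.58 late. The summed dendritic signal ran from 839 to 1137 units on the naive arrays and from 1062 to 1483 late. Of the B cell genes Ms4a1, Pax5 and Blk were at background on all 40 arrays, Cd79a and Cd79b differed by -0.08 and 0.05 in the late phase, and Fcmr, an IgM receptor gene, was above the detection level on 0 of 7 naive and 10 of 13 late arrays. Cd79a was near that level, above it on 5 of 7 naive and 7 of 13 late arrays. The summed signal of the 4 tested B cell genes ran from 437 to 477 units on the naive arrays and from 428 to 599 late. The T cell genes Cd4, Cd3g, Cd3d and Cd8a were at background on every array. Cd3e, the 1 tested, was near background, above the detection level on 3 of 7 naive and 6 of 13 late arrays. It was at 0.14 in the late phase (adjusted p = 0.302). At 9 d, on 2 arrays, it was at 0.49 (0.0328), and at 10 d at -0.08. The part of these cells in the late values was not tested.

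Of 19 other genes of the class II pathway, 8 were tested, and 2 of the 8 rose in the late phase, against 5.76% of all genes: Cd86, a T cell costimulator (0.40 ± 0.08, adjusted p = 0.000727), and Ifi30, a lysosomal thiol reductase that prepares antigen (0.28 ± 0.08, 0.0232). The count was 1 on removal of any of 3 single arrays (naive replicate 2, naive replicate 6 or 10 d replicate 1). Late minus middle called 0 of the 8, against 0.646% of all genes. The proteases that trim the invariant chain or antigen, Ctss (0.34, adjusted p = 0.229), Ctsl (0.05, 0.85) and Lgmn (-0.10, 0.222), missed the threshold late. H2-Oa and H2-Ob, the chains of the DM inhibitor H2-O, were at background on all 40 arrays, as was H2-Eb2. The median late difference of the 8 tested genes was 0.07, against 0.61 for the members.

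Of 9 tested genes of factors that act on class II promoters 0 were called in the late phase, against 10.9% of all genes. With 9 genes a count of 0 is near that share. Their median difference was -0.06. The NF-Y subunit genes Nfya, Nfyb and Nfyc were at -0.06, 0.03 and -0.03, and the RFX subunit gene Rfxap at -0.18. Nfya was near the detection level, above it on 1 of 7 naive and 4 of 13 late arrays. The other RFX subunit gene tested, Rfxank, was above it on 0 of 7 naive and 0 of 13 late arrays, so no value is given. Irf1, a factor that interferon induces, fell by 0.34 ± 0.09 in the middle phase (adjusted p = 0.0078) and was at -0.12 late. Rfx5, Spi1 and Irf4 were at background on every array.

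Genes of interferon gamma signalling were not called in the late phase against naive either. Of 11 tested, 4 fell in the middle phase (5.21% of all genes did): Ifngr1, the receptor chain, by 0.32, Irf1 by 0.34, the GTPase gene Gbp2 by 0.67 and the chemokine gene Cxcl10 by 0.65. Gbp2 and Cxcl10 also fell in the early phase, by 0.75 each, where 0.276% of all genes fell. That count of 2 ranged from 0 to 2, and was lower on removal of any of 13 single arrays and under 8 of 15 other settings. In the late phase 0 of 11 were called, against 10.9% of all genes, with a median of -0.02. The median from the middle to the late phase was 0.23 with 0 of 11 called, and Cxcl9 (0.73, adjusted p = 0.178) and Cxcl10 (0.51, 0.0845) had the largest values. Late minus early called 2 of 11 higher, against 4.4% of all genes: Cxcl9 (0.85, adjusted p = 0.0374) and Cxcl10 (0.60, 0.00601). The Cxcl9 call was lost on removal of any of 10 single arrays. The 2 probes of Ifng itself were at background on all 40 arrays.

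Of 17 tested genes of class I antigen presentation 0 were called in the late phase, against 10.9% of all genes, with a median of -0.008. B2m, the shared light chain, was at 0.002 ± 0.089, the transporter gene Tap1 at 0.02, and the CIITA relative Nlrc5, which drives class I genes, at -0.08. Tap1 and Nlrc5 were near the detection level. Tap1 was above it on 4 of 7 naive and 9 of 13 late arrays, and Nlrc5 on 5 of 7 and 7 of 13. In the middle phase 2 of the 17 were called lower, against 5.21% of all genes: H2-K1 (-0.26, adjusted p = 0.0277) and H2-T23 (-0.36, 0.044). H2-K1 was near the detection level in that phase, above it on 7 of 7 naive and 6 of 11 middle arrays, so the size of its fall is uncertain. From the middle to the late phase H2-T23 rose by 0.50 (0.00943). The class I heavy chain genes are related in sequence, so their probes may share transcripts, which was not tested. The H2-K1 value turned to 0.047 with neqc background correction, and both middle-phase calls were lost under several other settings.

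**Figure D3:**
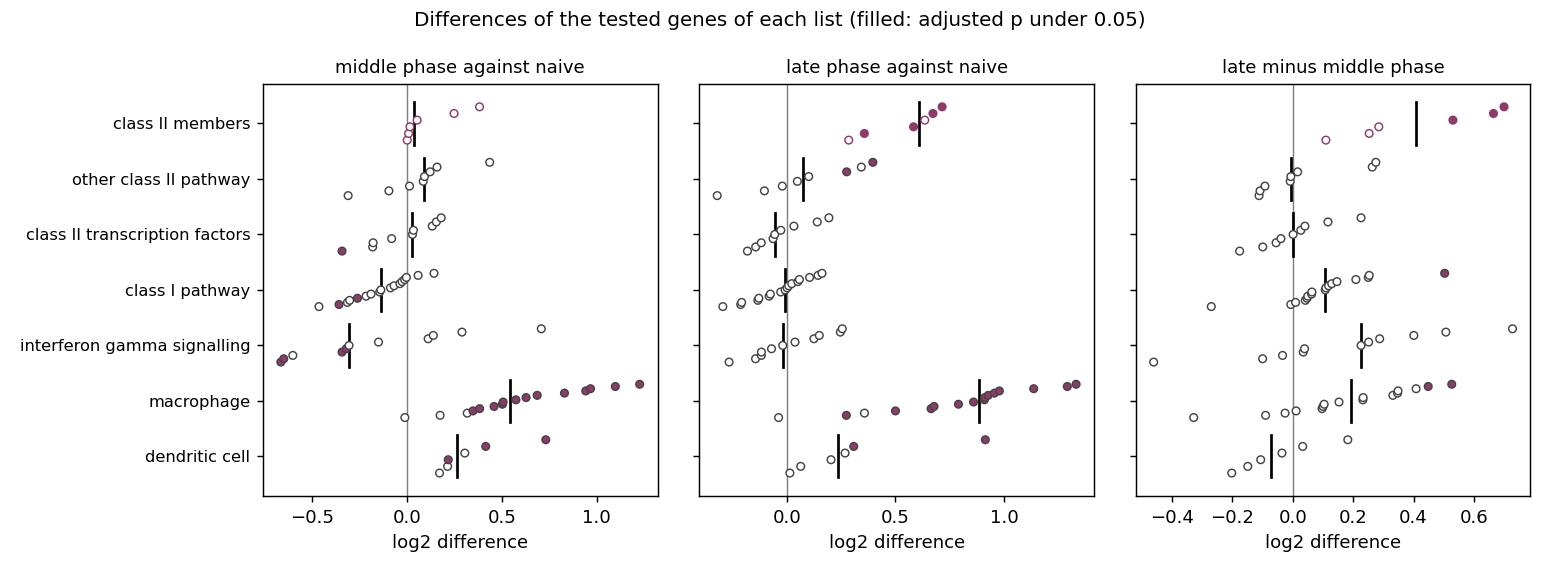
Each point is 1 tested gene of the list named on the y axis, at its log2 difference (x axis) in the comparison named above the panel; filled points passed an adjusted p of 0.05 and vertical bars are list medians. The class II members have a median of 0.03 in the middle phase, with H2-Aa at 0.38 and H2-DMa at 0.25, and of 0.61 in the late phase. Of the 16 macrophage genes 13 and 14 are filled to the right of 0.

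The members also varied together between arrays of the same group. Over the 40 arrays, the deviations from the group means of Cd74 and H2-Eb1 correlated at Pearson's r = 0.75 (Spearman's rho = 0.70), those of Cd74 and H2-Ab1 at 0.70 (0.68), those of H2-Ab1 and H2-Eb1 at 0.70 (0.67) and those of H2-DMa and H2-DMb1 at 0.65 (0.65). For these 4 pairs the permutation p within groups, adjusted over the 15 pairs, was at most 0.0017 for r and 0.0023 for rho, and r without the 2 arrays farthest from the median was 0.72, 0.67, 0.65 and 0.64. In all 8 of the 15 pairs passed on r. The other 4 paired H2-Ab1 or H2-Eb1 with H2-DMa or H2-DMb1, at r between 0.48 and 0.52 (adjusted p of 0.033 to 0.037), and only H2-Eb1 with H2-DMa also passed on rho (0.032). Without any 1 of several arrays 4 of the 15 pairs passed. No pair with H2-Aa passed, and its r with H2-Ab1 was -0.25 (rho = -0.32, adjusted p = 0.32 and 0.18). Cd74 and H2-DMa correlated at 0.17 (adjusted p = 0.47). The arrays share 1 normalization, which these correlations carry too.

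**Figure D4:**
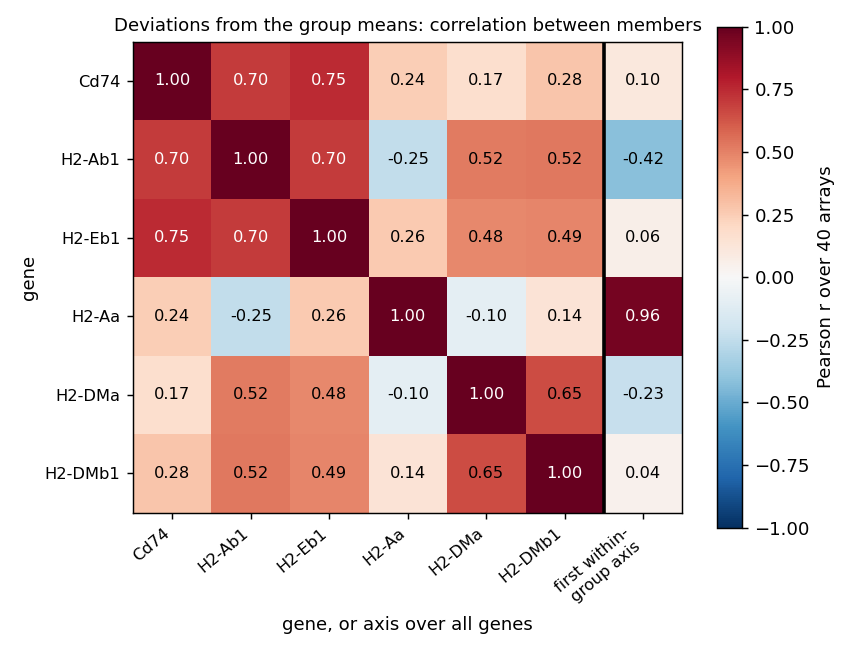
Each square gives Pearson's r over 40 arrays between the deviations from group means of the genes on the y and x axes, and the last column gives r with the first within-group axis over all genes. Cd74, H2-Ab1 and H2-Eb1 form a block with r of 0.70 to 0.75, and H2-Aa is set apart, with r = 0.96 with the axis.

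By their means in the 13 groups, 8 genes followed the mean of the 6 members most closely. Their Pearson's r ran from 0.92 to 0.96, given as a description. Tlr2, a receptor for bacterial lipoproteins (r = 0.96), was 0.62 ± 0.07 above naive late and 0.32 ± 0.07 above the middle phase. Unc93b1, which carries Toll-like receptors to endosomes (0.95), was at 0.67 and 0.41. Lyz2 (0.95) and Lyz1 (0.94), both lysozyme genes, were at 0.91 and 0.81 late. Ctsh, a lysosomal protease gene (0.92), was at 0.69 late and 0.46 above the middle phase. The others were Lpcat2, Igf1 and Lyl1. Lpcat2 was at 0.32 late and 0.26 above the middle phase, and Igf1 at 0.40 and 0.23. Lyl1 was above the detection level on 0 of 7 naive and 5 of 13 late arrays, so no value is given. Lpcat2, Igf1 and Lyl1 missed the late-minus-middle threshold (adjusted p of 0.119, 0.122 and 0.181). Tlr2, Lyz2 and Lyz1 were already called higher in the middle phase, by 0.30, 0.38 and 0.42 (adjusted p of 0.00741, 0.0106 and 0.00149). Among the members themselves r with that mean was 0.97 for Cd74 and for H2-Eb1, 0.95 for H2-Ab1, 0.82 for H2-DMa and for H2-DMb1, and 0.68 for H2-Aa.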

How the data were processed

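Per the labels' protocols, biotin-labelled cRNA from DRG RNA was hybridised to Illumina arrays. The authors deposited a table of raw signals (intensity) with a detection p-value per probe and array, and a log2 table that equals the log2 of their quantile-normalized signals within 5e-09. On 37 of 40 arrays the deposited detection p-value does not follow that array's signal. The detection level was therefore taken from the other 3 arrays (6.85; 6.82 to 6.88). The detection column of 10 d replicate 2 is named for another time than its signal column and label, and the array was kept as labelled. Software used by the authors is not given in the sources used here.

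The background correction was normexp with an offset of 50, followed by quantile normalization and log2. Probes above the level on at least 3 arrays were kept (15462), and the brightest kept probe by mean represents a gene. Of 25697 probes 23978 have 1 gene in the platform's table and 1719 none. limma 3.58.1 in R 4.3.3 fitted 1 mean per group over all 40 arrays, with trended moderated variances; Benjamini-Hochberg adjustment was over 10519 genes within each comparison, at 0.05. Errors are standard errors of log2 differences from this fit unless called SD. The fit was tested on simulated data with noise drawn independently for each gene and array. That simulation does not cover the shared axis of within-group variation described above. Named are all members, list genes past the threshold or with the largest differences, defining cell markers, and the 8 genes most alike. The members, lists and tests were chosen with earlier results of these data known, so no count of members or list genes is independent support for the pattern. The number of arrays limits the precision. No arrays were identical (highest correlation 0.995). Replicate numbers do not pair the arrays (mean correlation of deviations between -0.025 and 0.053; 7 of 40 arrays correlated best with their own number).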

Additional observations from a re-analysis of the deposited data

Results flagged for a closer look

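Among the 7 naive arrays, 2 of the 4 H2-Ab1 probes had naive replicate 4 far below the others, at log2 signals of 9.01 and 8.44. The difference that the other H2-Ab1 probes showed for that array, at 9.83 on the brightest, was in the same direction. H2-DMb1 had naive replicate 2 far above the rest, at 8.53. Chance marks about 1 in 20 such groups, and 10 probes were examined. Without naive replicate 2 the late difference of H2-DMb1 passed the threshold (adjusted p = 0.0472).

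The change from naive differed between phases by limma's test of the difference itself for 5 members between late and early and for 3 between late and middle. Late minus early was 0.95 for Cd74, 0.94 for H2-Ab1, 0.85 for H2-Eb1, 0.42 for H2-DMa and 0.30 for H2-DMb1. Late minus middle was 0.70 for Cd74, 0.66 for H2-Ab1 and 0.53 for H2-Eb1. All 3 of these were positive under the 15 settings other than leaving out 1 array and without each of the 40 arrays.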

How the results depend on the processing

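Class II members called stayed between 3 and 6 in the late phase, 4 and 6 for late minus early, 3 and 4 for late minus middle and 3 and 6 in the F-test over 15 settings (14 for the F-test). Of 1524 member values under these settings 1481 kept their side of the threshold, 30 gained a call, 13 lost one and 0 reversed. Without 1 array 4030 of 4080 kept it and 0 reversed. Cd74, H2-Ab1 and H2-Eb1 kept their late and late-minus-middle calls throughout. Robust variances with array weights called 1 member early (Cd74, lower) and 1 in the middle phase (H2-DMa, higher), and 212, 2127, 388 and 4553 genes early, middle, late minus middle and in the F-test. The replicate block, which sets naive replicates 4 to 7 aside because no other group has their numbers, called 39, 649, 551 and 505 genes early, middle, late and in the F-test, and 7 member-time pairs. The component covariate, added after the data were seen, called 215, 1728, 1134, 160 and 1472 genes (early, late, late minus early, late minus middle, F-test) and 19 member-time pairs. Scaling to the 75th percentile gave 43 genes late minus middle and 4 correlated pairs. Only the arrays of the groups compared gave 65 genes early and 39 late minus middle, and the block of sample numbers gave 44 late minus middle. H2-K1 in the middle phase reversed to 0.047 with neqc. The causes were not tested.

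Leaving out 1 array gave 76 to 162 genes early (76 without 1 d replicate 3, 77 without naive replicate 1) and 30 to 207 late minus middle (30 without 10 d replicate 1, 207 without 3 d replicate 1, 108 without 10 d replicate 2, and 37 to 44 without 2 d replicate 2, 3 d replicate 3, 4 d replicates 1 or 2, 7 d replicate 1, 8 d replicate 1 or 9 d replicate 1). It gave 0 to 1 members in the middle phase (1 without 3 d replicate 1) and 4 to 8 correlated pairs, with 4 without 16 h replicate 2, 2 d replicate 3, any array at 5 d, 8 d replicates 2 or 3, or either array at 9 d. The late-minus-early call of H2-DMb1 was lost (adjusted p up to 0.139) without 8 h replicates 2 or 3, 16 h replicates 1 or 2, 1 d replicate 1, 6 d replicates 1 or 2, 7 d replicate 2, 8 d replicates 1 or 2, 9 d replicate 1, or 10 d replicates 1 or 2. The H2-Ab1 call at 9 d was lost under 4 of the 15 settings (adjusted p up to 0.255) and without naive replicates 2, 4, 5 or 6 or 9 d replicate 1 (up to 0.755). Probes below the detection level, Ciita among them, allow no statement on change.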
